A study of Mus musculus with 4 samples.

Results

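The collagen genes of mouse skeletal muscle were described across the cell classes of 4 single-cell RNA libraries. Members were all features whose symbol is Col, a number, the letter a and a number, which gave 44 of 32285 mouse genes, and each of the 44 had at least 1 UMI (unique molecular identifier, 1 per captured RNA molecule) in the cells kept. They were divided by type into 9 fibrillar genes (types 1, 2, 3, 5 and 11), 8 basement membrane genes (types 4, 15 and 18), 6 beaded filament genes (type 6) and 21 others.

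Collagens are triple helices of 3 chains, and the chains that join in 1 helix are often products of different genes. Fibrillar collagens form the cables of tendon and of the connective tissue around muscle fibres. Type 4 collagen forms the sheet-like network of basement membranes around fibres, vessels and nerves, and types 15 and 18 are attached to it. Type 6 collagen forms beaded filaments between basement membrane and interstitial matrix, and mutations in its main chains cause muscular dystrophies in people.

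All libraries came from skeletal muscle of a mouse model of Duchenne muscular dystrophy (DMD), in which the fibre protein dystrophin is lacking. The mice received vehicle or LNP-CRISPR, a lipid nanoparticle that carries a CRISPR editor, and cells were taken either as labelled "Bulk" or through a satellite cell isolation kit, which gave 1 library for each of the 4 groups. Mouse strain, age, dose, time after dosing and the number of animals per library were not given in the sources used here. With 1 library per group there was no replicate check and no test was run. Treatment, animal and preparation cannot be told apart in any comparison below, and every interval is a 95% interval for counting error only.

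After filtering, 1199 cells of vehicle bulk, 1149 of LNP-CRISPR bulk, 1404 of vehicle kit and 1899 of LNP-CRISPR kit were kept, with a median of 22270, 16040, 8627 and 10310 UMIs per cell. Barcodes shared with another library numbered 1 to 5 per library. Cells fell into 26 clusters, which were named from marker genes with the collagens left out of both the clustering and the marker lists. Fibro-adipogenic progenitors (FAPs), the matrix-making mesenchymal cells of muscle, gave 4 clusters with 4 to 11 of 12 FAP markers, and tenocytes, the cells of tendon, gave 2 clusters with 8 and 10 of 10 markers. FAP-like cells numbered 645 and 430 in vehicle and LNP-CRISPR bulk but 2 and 7 in the kit libraries. Glial-like (252 and 428), pericyte or smooth muscle-like (141 and 303), satellite or myogenic-like (337 and 385) and muscle fibre-like cells (279 and 290) were mostly found in the vehicle and LNP-CRISPR kit libraries. The labels of the kit libraries name the isolation kit, and the satellite or myogenic-like class made up 24% and 20.3% of their kept cells. Clusters 9 (leading genes Hist1h2ab and Hist1h3c), 12 (Cdc20 and Nek2), 5, 19 and 24 reached no class name and are given by number. Clusters 9 and 12, which carried satellite or myogenic markers as given below, are not in that share. Cluster 9 made up 8.05% and 6.74% of the vehicle and LNP-CRISPR kit cells, and cluster 12 made up 5.84% and 4.63%. Clusters 5, 9 and 12 had fewer than 3 markers of any class above the other cells, and clusters 19 and 24 had low depth without a class marker among their leading genes. The isolations are set side by side and not compared, because every class fell short of 50 cells in at least 1 library.

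Levels are given as CPM, the UMIs of a gene in a class per 1000000 nuclear-encoded UMIs of that class. Because each molecule is counted once at its 3' end, levels of different genes were compared without a length correction. The 44 genes together had 2633561 UMIs in the kept cells. Fibrillar genes held 80% of these, beaded genes 9.16%, basement membrane genes 7.08% and the others 3.78%. Col1a1 (692735 UMIs), Col3a1 (615408) and Col1a2 (597986) were the most abundant members, and Col10a1, a collagen of hypertrophic cartilage, was the rarest with 9 UMIs.

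FAP-like cells held 81.9% of the collagen UMIs of vehicle bulk and 73.8% of LNP-CRISPR bulk. Tenocyte-like cells held 16% and 23.9% while making up 6.76% and 9.49% of the cells. In the kit libraries the few tenocyte-like cells (24 and 38) still held 34.6% and 37.9% of the collagen UMIs. Collagen RNA took up a median of 5.28% of a FAP-like cell's UMIs in vehicle bulk and 4.88% in LNP-CRISPR bulk, and a median of 7% and 7.2% of a tenocyte-like cell's UMIs. One tenocyte-like cell of LNP-CRISPR bulk reached 28.1%. Medians in glial-like, pericyte or smooth muscle-like and satellite or myogenic-like cells of the kit libraries lay between 0.23% and 0.43%, and the median muscle fibre-like cell had none.

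**Figure D1:**
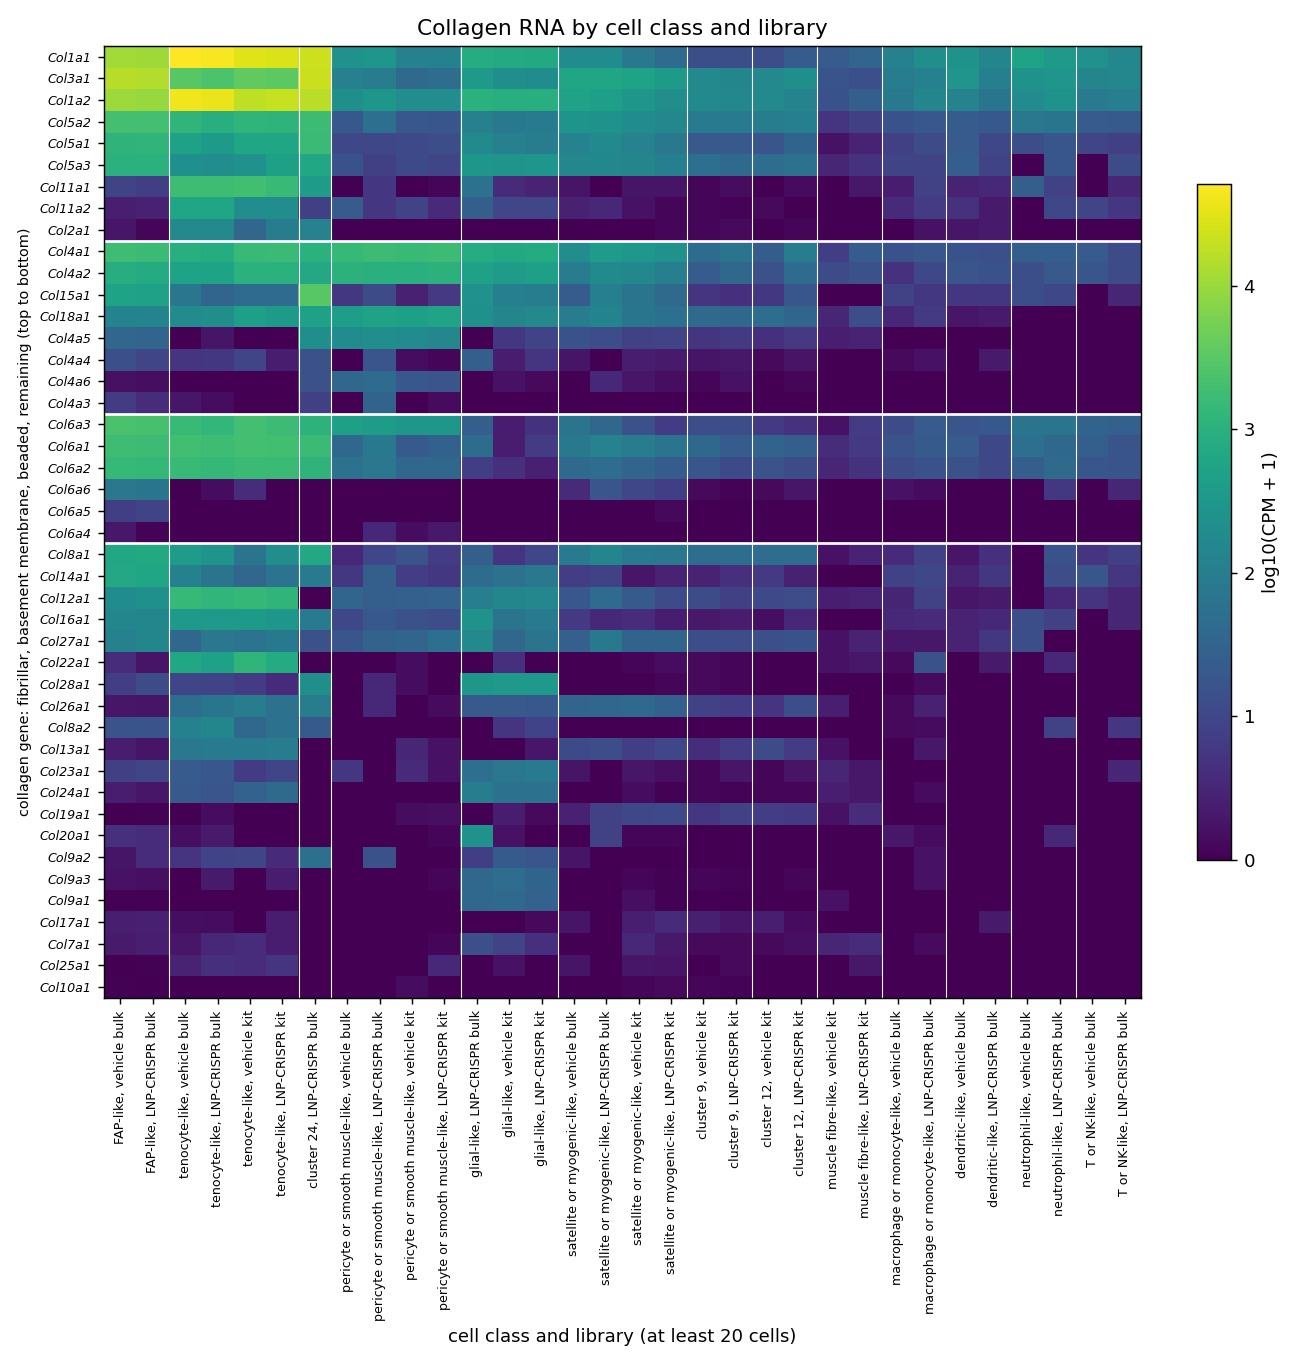
Level of each collagen gene (rows, by group) in each class and library (columns) on a colour scale of log10 of CPM plus 1, for classes with at least 20 cells. The fibrillar rows are brightest in the FAP-like and tenocyte-like columns, the type 4 rows extend to pericyte or smooth muscle-like and glial-like columns, and the Col28a1 row is bright in the glial-like columns.

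The fibrillar sum was highest in tenocyte-like cells, at 98941 CPM (98518 to 99366) in vehicle bulk and 89204 (88829 to 89579) in LNP-CRISPR bulk. FAP-like cells followed with 42498 and 39737 CPM, so that the vehicle bulk ratio of tenocyte-like to FAP-like was 2.33 (2.32 to 2.34). The basement membrane sum had the other order in the same library, 3331 CPM in FAP-like and 1685 in tenocyte-like cells, a ratio of 1.98 (1.91 to 2.05). Both orders held for each tenocyte-like cluster against the FAP-like class, but not for cluster 15 against every single FAP-like cluster. In vehicle bulk cluster 18 had 137951 CPM of fibrillar and 663 of basement membrane genes, and cluster 15 had 49478 and 2980. The FAP-like clusters ranged from 34446.5 to 50600 CPM and from 1952 to 4258 CPM, which takes in both values of cluster 15. Beaded genes were nearer in these classes, at 5593 CPM in FAP-like and 4893 in tenocyte-like cells. In vehicle kit, among classes of at least 50 cells, glial-like cells had the highest fibrillar sum (2319 CPM), ahead of satellite or myogenic-like cells (1374). That order depended on how cells were weighted, since the ratio of 1.69 became 0.979 when every cell counted equally. Pericyte or smooth muscle-like cells led in basement membrane genes with 3170.1 CPM, against 1381 in glial-like cells. They also led in beaded genes, with 371 CPM against 149 in satellite or myogenic-like cells.

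**Figure D2:**
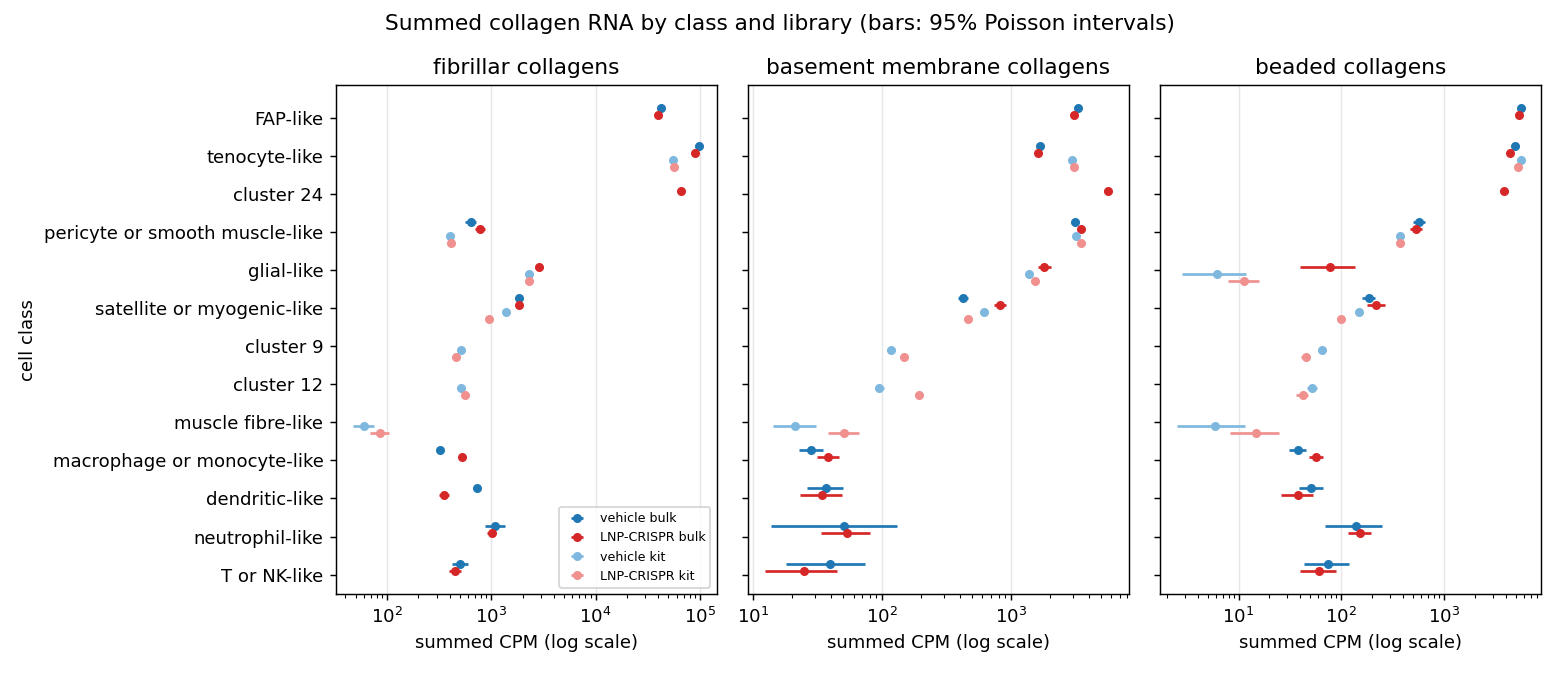
Summed CPM (log axis) of the fibrillar, basement membrane and beaded collagens in each class, 1 point per library with its 95% Poisson interval. Pericyte or smooth muscle-like cells reach the basement membrane sum of FAP-like cells (3170.1 CPM in vehicle kit and 3331 in vehicle bulk), whereas their fibrillar sums differ by far more (400.2 and 42498).

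Neutrophils and lymphocytes are not known as collagen makers and served as a measure of free RNA in the bulk libraries. Summed over the 44 genes, neutrophil-like cells had 1305 CPM in vehicle bulk and 1260.05 in LNP-CRISPR bulk, and T or NK-like cells had 642 and 559, which comes to between 3.12 and 4.96 collagen UMIs per cell. FAP-like cells had 1824 and 1723 collagen UMIs per cell. A Col1a1 UMI was present in 59.4% of neutrophil-like cells (median 2573 UMIs per cell), in 74% of T or NK-like cells (median 8300.5) and in all FAP-like cells (median 29619) of LNP-CRISPR bulk. After each cell was thinned to 1000 UMIs, which kept 121 of 155 neutrophil-like, 50 of 50 T or NK-like and 421 of 430 FAP-like cells, the shares were 30.6%, 8% and 97.6%. Macrophage or monocyte-like cells (405 and 668 CPM in vehicle and LNP-CRISPR) and dendritic-like cells (829 and 443) lay below the neutrophil-like level in CPM, and above the T or NK-like level in 1 library each. Per cell, without scaling to depth, they held more collagen UMIs than either class. The counts were 5.87 and 10.7 in macrophage or monocyte-like and 15.9 and 6.36 in dendritic-like cells. Of these UMIs, 1 cell held 64.6% in the vehicle dendritic-like class and 1 held 17.6% in the LNP-CRISPR macrophage or monocyte-like class. The median collagen share of a cell's UMIs was 0.136% and 0.154% in neutrophil-like and 0.0721% and 0.0525% in T or NK-like cells. It was lower in both libraries in macrophage or monocyte-like (0.0385% and 0.0485%) and dendritic-like cells (0.0282% and 0.0456%). How much of this was free RNA was not tested. The kit libraries held at most 8 neutrophil-like cells, and the lowest collagen sum there was that of muscle fibre-like cells, at 100.1 and 167 CPM.

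Type 1 collagen, the main protein of tendon and of scar, is built from Col1a1 and Col1a2 chains. Col1a1 stood at 51299 CPM in vehicle and 46205 in LNP-CRISPR tenocyte-like cells of bulk, and at 11590.3 and 11152 in FAP-like cells. Col1a2 stood at 40049.6 and 36631 CPM in tenocyte-like cells and at 10545 and 9710.4 in FAP-like cells. Both chains were thus highest in tenocyte-like cells in both bulk libraries. Within that class cluster 18, led by Chad, Fmod and Comp, had 75074 CPM of Col1a1 in vehicle and 67707 in LNP-CRISPR, while cluster 15, led by Tnmd and Itga10, had 21153 and 20326.5. In glial-like and satellite or myogenic-like cells of the kit libraries Col1a2 exceeded Col1a1. Glial-like cells had 748 and 712 CPM of Col1a1 and 883 and 918 of Col1a2. Satellite or myogenic-like cells had 76 and 43.6 CPM of Col1a1 and 312 and 207 of Col1a2.

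The ratio of Col1a1 to Col1a2 UMIs is independent of cell number and depth. It was 1.28 (1.27 to 1.29) and 1.26 (1.25 to 1.27) in tenocyte-like cells and 1.1 (1.09 to 1.11) and 1.15 (1.14 to 1.16) in FAP-like cells of vehicle and LNP-CRISPR bulk. It was below 1 in glial-like cells, at 0.847 (0.781 to 0.919) and 0.776 (0.734 to 0.82) in vehicle and LNP-CRISPR kit. Satellite or myogenic-like cells had 0.243 (0.221 to 0.267) and 0.21 (0.191 to 0.231), and the myogenic clusters differed among themselves. Cluster 2, led by the satellite cell genes Pax7 and Calcr, had 0.412 and 0.425, cluster 14, led by Esm1 and Hmga2, had 0.0742 and 0.0563, and cluster 23, led by Myh3 and Mymk, had 0.0245 and 0.0404. Clusters 9 and 12 lay from 0.0705 to 0.177. Pericyte or smooth muscle-like cells had 0.544 and 0.592 in the kit libraries but 1.05 and 0.927 in the bulk libraries. The part of free RNA in that gap was not tested.

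**Figure D3:**
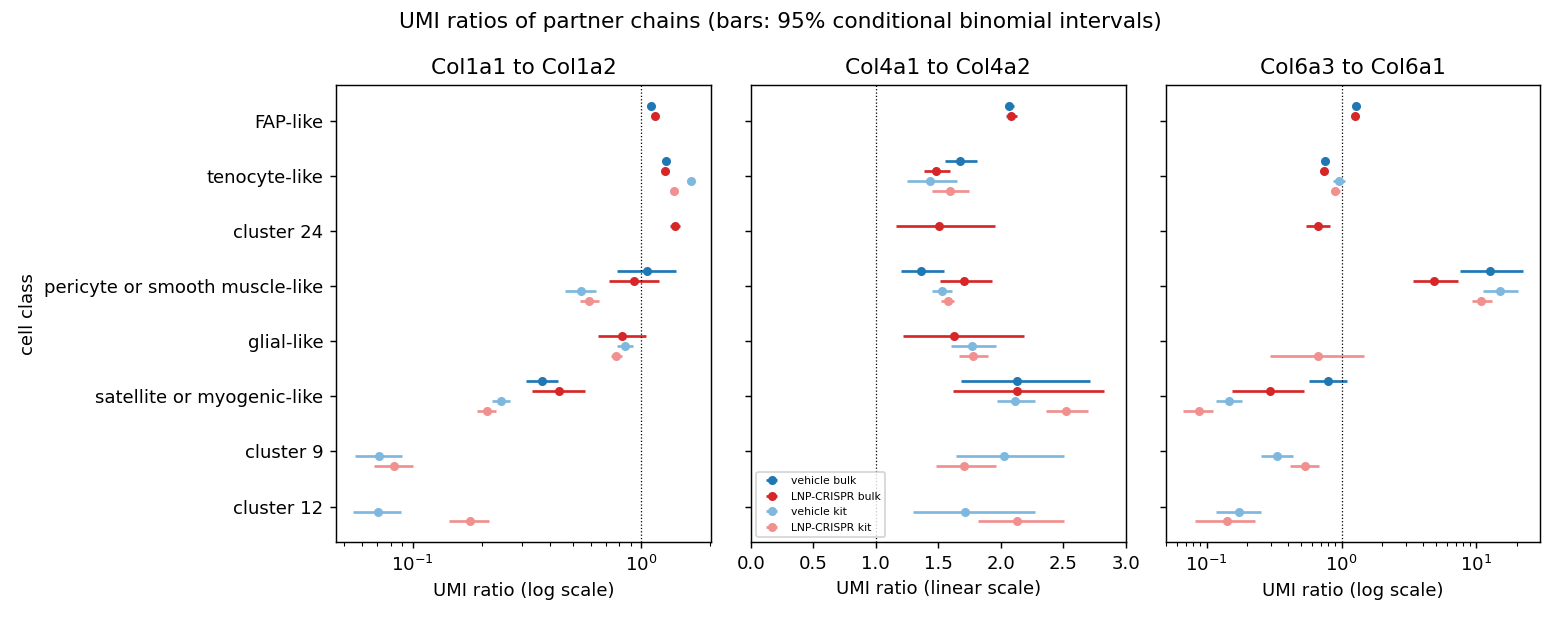
UMI ratios of Col1a1 to Col1a2 (log axis), Col4a1 to Col4a2 (linear axis) and Col6a3 to Col6a1 (log axis) by class, 1 point per library with 95% conditional binomial intervals and a dotted line at 1. The Col1a1 to Col1a2 ratio is 1.28 in tenocyte-like cells of vehicle bulk and 0.0712 in cluster 9 of vehicle kit, and Col6a3 to Col6a1 reaches 15 in pericyte or smooth muscle-like cells of vehicle kit.

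Type 3 collagen, a helix of Col3a1 chains that makes the fine reticular fibres of soft tissue, had another pattern. Col3a1 was the most abundant collagen of FAP-like cells, at 16111 CPM (16058 to 16164) in vehicle and 14597 (14535 to 14659) in LNP-CRISPR bulk. In tenocyte-like cells of the same libraries it had 3112 and 2358 CPM, so that it exceeded Col1a1 1.39-fold and 1.31-fold in FAP-like cells but amounted to 0.0607 and 0.051 of it in tenocyte-like cells. It was also the leading collagen of satellite or myogenic-like cells, with 532 CPM in vehicle and 365 in LNP-CRISPR kit. Of these, cluster 2 had 1133 and 1068 CPM and cluster 23 had 95.7 and 65.8. In glial-like cells (216 and 196 CPM) and pericyte or smooth muscle-like cells (41.2 and 47.6 CPM) of the kit libraries it was below Col1a1. Col3a1 lies on chromosome 1 at 45311538 to 45349706 (GRCm38, plus strand) next to Col5a2, which runs the opposite way 24614 bases on. The upstream stretch of Col3a1, chr1:45311288-45311537 on the plus strand of GRCm38.p6, is shown because this gene led in both FAP-like and satellite or myogenic-like cells. It is taken from RefSeq and runs to the last base before the start of transcription, with the letters TATAAA in capitals.
Col3a1 upstream: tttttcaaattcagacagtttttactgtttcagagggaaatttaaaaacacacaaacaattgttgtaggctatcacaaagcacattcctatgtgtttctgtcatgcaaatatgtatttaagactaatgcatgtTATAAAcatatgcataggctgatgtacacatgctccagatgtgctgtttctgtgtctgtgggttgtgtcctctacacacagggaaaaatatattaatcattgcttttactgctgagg
TATAAA was searched on both strands in the 250 bases before the start. It was found in 5 of the 38 collagen windows (35 of the 44 genes matched), a share of 13.2%, and in 12.4% of all 32851 windows.

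Type 5 collagen starts fibrils and limits their width, and its chains were highest in FAP-like cells. Col5a2 had 2038 CPM in both vehicle and LNP-CRISPR bulk FAP-like cells, against 1207 and 927 in tenocyte-like cells. Col5a1 had 1177 and 1196 CPM in FAP-like cells and 501 and 369.8 in tenocyte-like cells. Col5a3 had 1027 and 1035 CPM in FAP-like cells and 268 and 303 in glial-like cells of the kit libraries. Outside FAP-like and tenocyte-like cells, Col5a2 was highest in satellite or myogenic-like cells, with 192 and 152 CPM in vehicle and LNP-CRISPR kit. The neighbours Col3a1 and Col5a2 did not keep a fixed proportion: Col3a1 had 7.91 times the UMIs of Col5a2 in FAP-like cells of vehicle bulk, 2.58 times in tenocyte-like cells of that library and 1.76 times in cluster 12 of vehicle kit.

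The remaining fibrillar genes were highest in tenocyte-like cells among the classes of at least 50 cells in bulk. They are named here after their values were seen. Col11a1, a minor fibril chain of cartilage and developing tendon, had 1770.5 CPM in vehicle and 1733 in LNP-CRISPR tenocyte-like cells against 8.29 and 6.48 in FAP-like cells. Col11a2 had 611 and 613 CPM in tenocyte-like cells, and Col2a1, the main cartilage collagen, had 163 and 165. Col2a1 was higher in cluster 18 (227 and 239.9 CPM) than in cluster 15 (82.4 and 74.9). Col22a1, a collagen of the muscle-tendon junction counted among the others, had the opposite split, with 1346 and 1013 CPM in cluster 15 and 59.1 and 82.5 in cluster 18. Col3a1 followed Col22a1, with 5536 and 3395 CPM in cluster 15 and 1199.99 and 1497 in cluster 18.

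Among basement membrane genes, Col4a1 and Col4a2 encode the chains found in nearly all basement membranes. Col4a1 had 1753 and 1613 CPM in FAP-like cells of vehicle and LNP-CRISPR bulk. It had 1498 and 1697 CPM in pericyte or smooth muscle-like cells and 719 and 802 in glial-like cells of vehicle and LNP-CRISPR kit. Satellite or myogenic-like cells had 327 and 258 CPM, and within them cluster 2 had 799 and 896. Col4a2 had 847 and 773 CPM in FAP-like cells, 980.4 and 1076 in pericyte or smooth muscle-like cells and 405 and 451 in glial-like cells. The 2 genes lie head to head on chromosome 8, Col4a1 at 11198423 to 11312826 on the minus strand and Col4a2 at 11312805 to 11449287 on the plus strand, with 22 bases of overlap in the annotation. Col4a1 exceeded Col4a2 in each of these classes. The ratio of their UMIs was 2.07 (2.03 to 2.11) and 2.09 (2.04 to 2.13) in FAP-like cells, 1.53 (1.45 to 1.61) and 1.58 (1.53 to 1.63) in pericyte or smooth muscle-like cells and 2.11 (1.97 to 2.27) and 2.52 (2.36 to 2.7) in satellite or myogenic-like cells. These ratios spanned a far smaller range than those of Col1a1 to Col1a2.

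The other type 4 chains were rarer and more restricted. Col4a5, on the X chromosome beside Col4a6, had 191 and 151 CPM in pericyte or smooth muscle-like cells of vehicle and LNP-CRISPR kit. It had 35.5 and 34 CPM in FAP-like cells of the bulk libraries and no UMI in the 81 tenocyte-like cells of vehicle bulk, where a count of 0 allows up to 3 UMIs. Col4a6 was highest in the same class with 18.2 and 16.5 CPM. Col4a3 and Col4a4, which are 71 bases apart in opposite directions on chromosome 1 and are known from the kidney filter, stayed at 5.7 and 13.3 CPM in FAP-like cells of vehicle bulk.

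Col15a1, a proteoglycan form of collagen beneath muscle and vessel cells, had 541 and 498 CPM in FAP-like cells, where it was 7.7 times (6.55 to 9.11) its level in tenocyte-like cells of vehicle bulk. It had 108 and 97.6 CPM in glial-like cells, 62.7 and 40.9 in satellite or myogenic-like cells and 1.73 and 5.13 in pericyte or smooth muscle-like cells of the kit libraries. Col18a1, its relative and the precursor of endostatin, had a different order. It stood at 480.4 and 568 CPM in pericyte or smooth muscle-like cells, 141 and 163 in glial-like cells and 134 and 132 in FAP-like cells. In tenocyte-like cells it had 190 and 210.1 CPM. Within the myogenic clusters Col15a1 was highest in cluster 2 (152 and 146 CPM) and Col18a1 in cluster 14 of vehicle kit (97.1 CPM) and cluster 2 of LNP-CRISPR kit (90.8 CPM).

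Beaded filaments are built from Col6a1, Col6a2 and a further, longer chain, which Col6a3 encodes in most tissues. In FAP-like cells of vehicle and LNP-CRISPR bulk the 3 genes were near each other, with 1776 and 1719 CPM of Col6a1, 1459 and 1383 of Col6a2 and 2278 and 2171 of Col6a3. Tenocyte-like cells had 1944 and 1769.5 CPM of Col6a1, 1474 and 1344 of Col6a2 and 1474 and 1321 of Col6a3. The chains parted in the other classes. Pericyte or smooth muscle-like cells of the kit libraries had 311 and 307 CPM of Col6a3 but 20.8 and 28.2 of Col6a1 and 38.2 and 36.6 of Col6a2. Satellite or myogenic-like cells had 92.9 and 64.1 CPM of Col6a1 but 13.7 and 5.59 of Col6a3. Col6a3 thus had 15 (11.2 to 20.5) and 10.9 (9.23 to 12.9) times the UMIs of Col6a1 in the former class, and 0.148 (0.118 to 0.182) and 0.0872 (0.0667 to 0.112) in the latter. In the bulk libraries the ratio was 12.5 and 4.88 in pericyte or smooth muscle-like cells and 0.8 and 0.294 in satellite or myogenic-like cells. Glial-like cells of the kit libraries had at most 5.8 CPM of any of the 3 chains.

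Col6a1 and Col6a2 are neighbours on chromosome 10, 85161 bases apart on the minus strand, and Col6a3 lies alone on chromosome 1. The stretches before their starts are shown because the 3 chains parted in pericyte or smooth muscle-like and satellite or myogenic-like cells. They come from RefSeq on GRCm38.p6, all on the minus strand: chr10:76726169-76726294 for Col6a1, shortened to 126 bases where an upstream GENCODE start lies, chr10:76623631-76623880 for Col6a2 and chr1:90843972-90844221 for Col6a3. The GC box is read as GGGCGG, and capitals mark its form on the other strand.
Col6a1 upstream: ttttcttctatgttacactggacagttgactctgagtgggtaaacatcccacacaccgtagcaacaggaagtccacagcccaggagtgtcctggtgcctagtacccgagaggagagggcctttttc
Col6a2 upstream: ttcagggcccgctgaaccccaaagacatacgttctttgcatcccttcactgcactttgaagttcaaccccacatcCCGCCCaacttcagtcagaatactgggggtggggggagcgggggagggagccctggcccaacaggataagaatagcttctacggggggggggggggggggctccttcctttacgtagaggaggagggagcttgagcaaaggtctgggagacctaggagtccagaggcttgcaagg
Col6a3 upstream: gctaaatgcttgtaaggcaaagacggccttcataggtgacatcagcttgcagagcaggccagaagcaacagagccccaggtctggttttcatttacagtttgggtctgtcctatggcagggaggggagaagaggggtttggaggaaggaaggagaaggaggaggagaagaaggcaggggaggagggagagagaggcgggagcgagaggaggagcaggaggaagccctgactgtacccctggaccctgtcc
The TATA and GC boxes and the CCAAT box were searched on both strands, and the GC box of Col6a2 was the one match in these 3 stretches. GGGCGG was found in 22 of 38 collagen windows (57.9%) and in 32.7% of all windows, and CCAAT in 13 of 38 (34.2%) and in 33.8%. These are matches of letters in a window and describe no binding.

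The genes of the alternative long chains, Col6a4, Col6a5 and Col6a6, lie side by side on chromosome 9. Col6a6 had 72.4 and 66.1 CPM in FAP-like cells of vehicle and LNP-CRISPR bulk and 9 and 6.6 in satellite or myogenic-like cells of the kit libraries. Col6a5 had 6.43 and 8.37 CPM in FAP-like cells, and Col6a4 had 34 UMIs in all kept cells.

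Of the 21 other genes, Col8a1, Col14a1, Col12a1, Col16a1 and Col27a1 had the most UMIs. Col8a1, a short-chain network collagen of vessels, had 631 and 717 CPM in FAP-like cells, 379 and 272 in tenocyte-like cells and 86.9 and 76.8 in satellite or myogenic-like cells. Col14a1 and Col12a1, relatives that sit on the surface of fibrils, had opposite distributions. Col14a1 had 707 and 615 CPM in FAP-like and 114 and 63.1 in tenocyte-like cells. Col12a1 had 197 and 229.8 CPM in FAP-like and 1431 and 1276 in tenocyte-like cells. Col16a1 had 338 and 331 CPM in tenocyte-like cells, 142 and 146 in FAP-like cells and 64.2 and 87.6 in glial-like cells. Col27a1, whose type was not among those counted as fibrillar here, had 118 and 142 CPM in FAP-like cells and 35.4 and 71.7 in tenocyte-like cells.

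Several rare members leaned to 1 class of the kit libraries, again named after their values were seen. Col28a1, a collagen of the Schwann cell surface, had 341 CPM (311 to 372) in vehicle and 353 (332 to 375) in LNP-CRISPR glial-like cells. In the kit libraries it had at most 0.434 CPM in pericyte or smooth muscle-like cells and 0.169 in satellite or myogenic-like cells, and a UMI in 64.3% and 67.1% of glial-like cells. Col9a1, Col9a3, Col23a1 and Col24a1 were also highest in glial-like cells in vehicle kit, at 39.4, 46.3, 71.8 and 56.6 CPM. In LNP-CRISPR kit they had 29.3, 32.2, 86.6 and 57 CPM there. Col9a1 and its neighbour Col19a1 on chromosome 1 split by class, since Col19a1 had 9.41 and 10.2 CPM in satellite or myogenic-like cells and 1.38 and 0.322 in glial-like cells. Col26a1 had 39.2 and 28 CPM in satellite or myogenic-like cells and 49.1 and 67.6 in tenocyte-like cells of the bulk libraries. Col8a2, the partner of Col8a1, had 116 and 144 CPM in tenocyte-like cells, and Col13a1, a transmembrane collagen, had 74.6 and 88.5. The other 6 members (Col7a1, Col9a2, Col10a1, Col17a1, Col20a1 and Col25a1) had at most 20.7 CPM in any class of at least 50 cells.

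Col3a1, Col1a1 and Col1a2 were the 3 highest collagens in each of the 4 FAP-like clusters of vehicle bulk, at different levels. Cluster 3, led by Pi16, had the highest Col3a1 of them, 20131 and 18391 CPM in vehicle and LNP-CRISPR bulk. Cluster 21, led by Ccn5 and Adam12, had 10717 and 10402 CPM. Col4a1 was highest in cluster 7, led by Gdf10 and Rspo3, at 2196 and 2210.15 CPM, with 1662 and 1329 in cluster 3 and 1001 and 918 in cluster 21. Col8a1 also split the class, with 179.8 and 204 CPM in cluster 7 and 933 and 972 in cluster 21. Cluster 24 of LNP-CRISPR bulk (35 cells), led by Apod, is low in depth and unnamed, and had 22894 CPM of Col1a1 and 3127 of Col15a1.

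In the satellite or myogenic-like class, collagen RNA was concentrated in cluster 2, the one led by Pax7 and Calcr. Summed over the 44 genes it had 4632 and 4484 CPM in vehicle and LNP-CRISPR kit. Cluster 14 had 1486 and 1041 CPM, cluster 23, led by embryonic myosin Myh3, had 510.3 and 399 and cluster 22, led by Mylk4 and Cdkn1c, had 370 and 446. The unnamed clusters 9 and 12, in which 11 or 12 of the 12 satellite or myogenic markers were found in at least 10% of cells, had 790 and 745 and 757 and 907 CPM. The drop from cluster 2 to clusters 14 and 23 was larger for basement membrane genes (1415 CPM against 170.02 and 53.8 in vehicle kit) than for fibrillar genes (2613 against 1002 and 349.7).

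**Figure D4:**
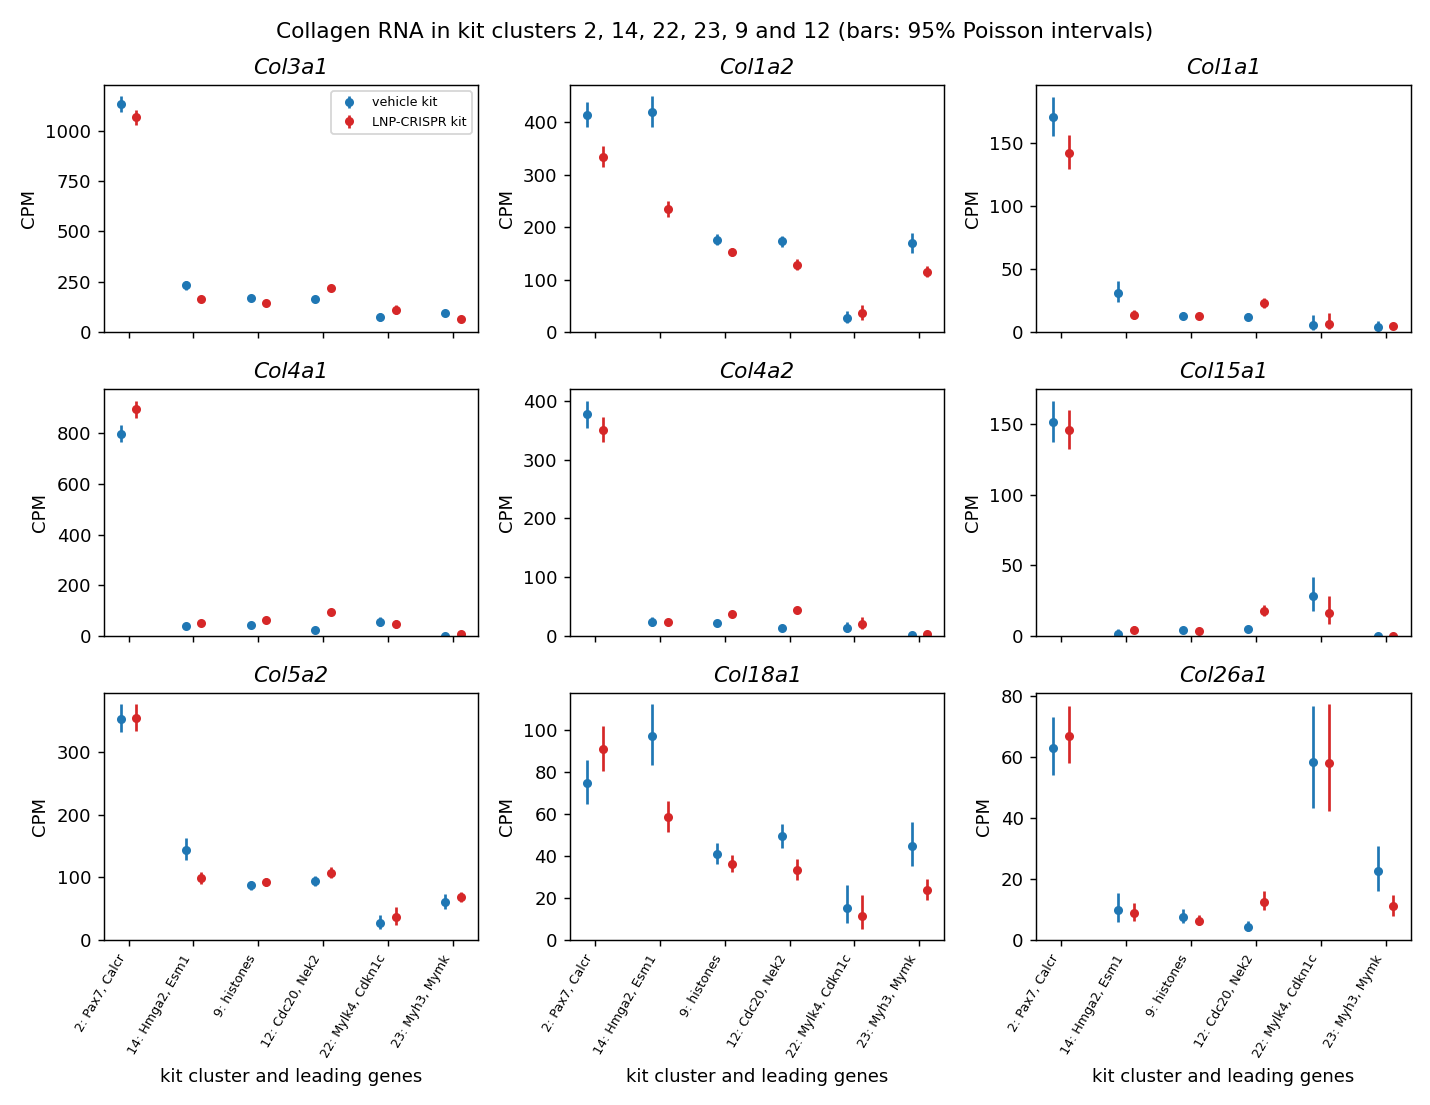
CPM (linear axis) of 9 collagens in the satellite or myogenic-like clusters 2, 14, 22 and 23 and in the unnamed clusters 9 and 12 of vehicle kit and LNP-CRISPR kit, with 95% Poisson intervals. Col3a1 and Col4a1 are highest in cluster 2 (1133 and 799 CPM in vehicle kit). In vehicle kit Col1a2 is as high in cluster 14 (419 CPM) as in cluster 2 (414 CPM), and its level in cluster 14 is lower in LNP-CRISPR kit.

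LNP-CRISPR and vehicle were then set against each other within each class, and the unnamed clusters 9 and 12, with at least 50 cells in both libraries. Cluster 5 (136 and 162 kit cells), of low depth, was not compared. A member was counted as higher or lower when it had at least 30 UMIs over both libraries and a CPM ratio of at least 1.5 or at most its inverse. In FAP-like cells 36 of 44 members had enough UMIs, of which 2 were higher and 3 lower (13.9%), against 3.01% higher and 4.99% lower (8% together) of all genes with enough UMIs. The median log2 ratio of the members was -0.06, and that of all genes was -0.05. The fibrillar, basement membrane and beaded sums had ratios of 0.935 (0.932 to 0.938), 0.919 (0.909 to 0.93) and 0.956 (0.948 to 0.965). The class had a different makeup in the 2 libraries, with cluster 7 giving 200 of 645 vehicle and 66 of 430 LNP-CRISPR cells. Within clusters 3, 6, 7 and 21 the fibrillar ratio was 0.979, 0.889, 0.913 and 0.913. The basement membrane ratio lay on both sides of 1, at 0.81 and 0.885 in clusters 3 and 21 and at 1.07 and 1.08 in clusters 6 and 7. The beaded ratio was 1.12 in cluster 7 and 0.928, 0.961 and 0.928 in clusters 3, 6 and 21. Every member above 100 CPM in the vehicle FAP-like cells was within 1.2-fold in the 2 libraries. Members past the ratio were rare ones: Col28a1 went from 6.38 to 10.9 CPM (1.7-fold, 1.35 to 2.15), Col9a2 from 0.86 to 3.04 CPM (3.53-fold), Col13a1 from 1.36 to 0.81, and Col4a3 from 5.7 to 2.9 CPM (0.509, 0.351 to 0.725). Col22a1 went from 2.99 to 0.81 CPM, and 38 of its 66 vehicle UMIs came from 1 cell, without which and the highest LNP-CRISPR cell its ratio was 0.532 and not 0.271. With the highest cells left out Col13a1 had a ratio of 0.708 (0.298 to 1.57), which does not pass 1.5-fold, and Col9a2 had 2.59, since 19 of its 45 LNP-CRISPR UMIs lay in 1 cell.

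Tenocyte-like cells had 28 members with enough UMIs, of which 1 was higher and 2 lower (10.7%), against 6.26% higher and 8% lower (14.3% together) of all genes. The 3 group ratios were 0.902 (0.896 to 0.907), 0.954 (0.912 to 0.999) and 0.906 (0.882 to 0.931). Col27a1 went from 35.4 to 71.7 CPM, a ratio of 2.02 (1.54 to 2.69). Col15a1 went from 70.3 to 33.6 CPM (0.477, 0.36 to 0.629) and Col14a1 from 114 to 63.1 (0.552, 0.448 to 0.678). Of the 242 vehicle UMIs of Col14a1, 86 lay in 1 cell, and its ratio without the highest cells was 0.697, which does not pass 1.5-fold. Both are higher in FAP-like than in tenocyte-like cells. The FAP marker list summed to 10533 CPM in vehicle and 8119 in LNP-CRISPR tenocyte-like cells, with all 12 markers detected in both. Most of each sum was Dcn, a list member that was higher in tenocyte-like than in FAP-like cells, as given below. The part of FAP RNA in these ratios was not tested.

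Glial-like cells had 25 members with enough UMIs, of which 4 were higher and 0 lower (16%), against 6.73% higher and 4.06% lower (10.8% together) of all genes. Fibrillar and basement membrane sums had ratios of 1 (0.962 to 1.04) and 1.11 (1.05 to 1.17), and the beaded sum had 1.81 (0.854 to 4.29) on 9 and 35 UMIs. Col27a1 went from 34.5 to 64.4 CPM (1.87, 1.36 to 2.6), whereas Col8a1 (4.14 to 9.02 CPM), Col8a2 (4.14 to 8.05) and Col4a5 (4.83 to 8.37) rested on 6 or 7 vehicle UMIs each and had intervals that took in 1. Pericyte or smooth muscle-like cells had 21 members with enough UMIs, of which 2 were higher and 2 lower (19%), against 5.25% higher and 8.48% lower (13.7% together) of all genes. At the finer clustering the class split into clusters of 107 vehicle and 147 LNP-CRISPR cells and of 34 and 155, so that its makeup also differed between the libraries. Its group ratios were 1.02 (0.943 to 1.1), 1.11 (1.08 to 1.14) and 1.01 (0.929 to 1.09). Col27a1 went from 33.4 to 51.5 CPM (1.54, 1.19 to 2.01) and Col15a1 from 1.73 to 5.13. In the vehicle cells of this class 1 UMI equals 0.434 CPM, so that the vehicle value of Col15a1 rests on few UMIs. Col11a2 went from 8.24 to 2.57 CPM, and Col8a1 from 14.7 to 5.86, where 22 of 34 vehicle UMIs lay in 1 cell and the ratio without the highest cells was 0.943.

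Col27a1 was therefore above 1.5-fold in tenocyte-like, glial-like and pericyte or smooth muscle-like cells. In FAP-like cells its ratio was 1.2 (1.13 to 1.27), in satellite or myogenic-like cells 1.01 (0.856 to 1.2) and in clusters 9 and 12 it was 1.03 (0.757 to 1.4) and 1.13 (0.809 to 1.57). Within clusters it was 2.06 and 1.97 in the tenocyte-like clusters 18 and 15 and between 1.07 and 1.39 in the 4 FAP-like clusters of the bulk libraries. In the 21 and 31 kit cells of cluster 15 it was 1.22 (0.724 to 2.14). Whether these ratios differ between classes was not tested.

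**Figure D5:**
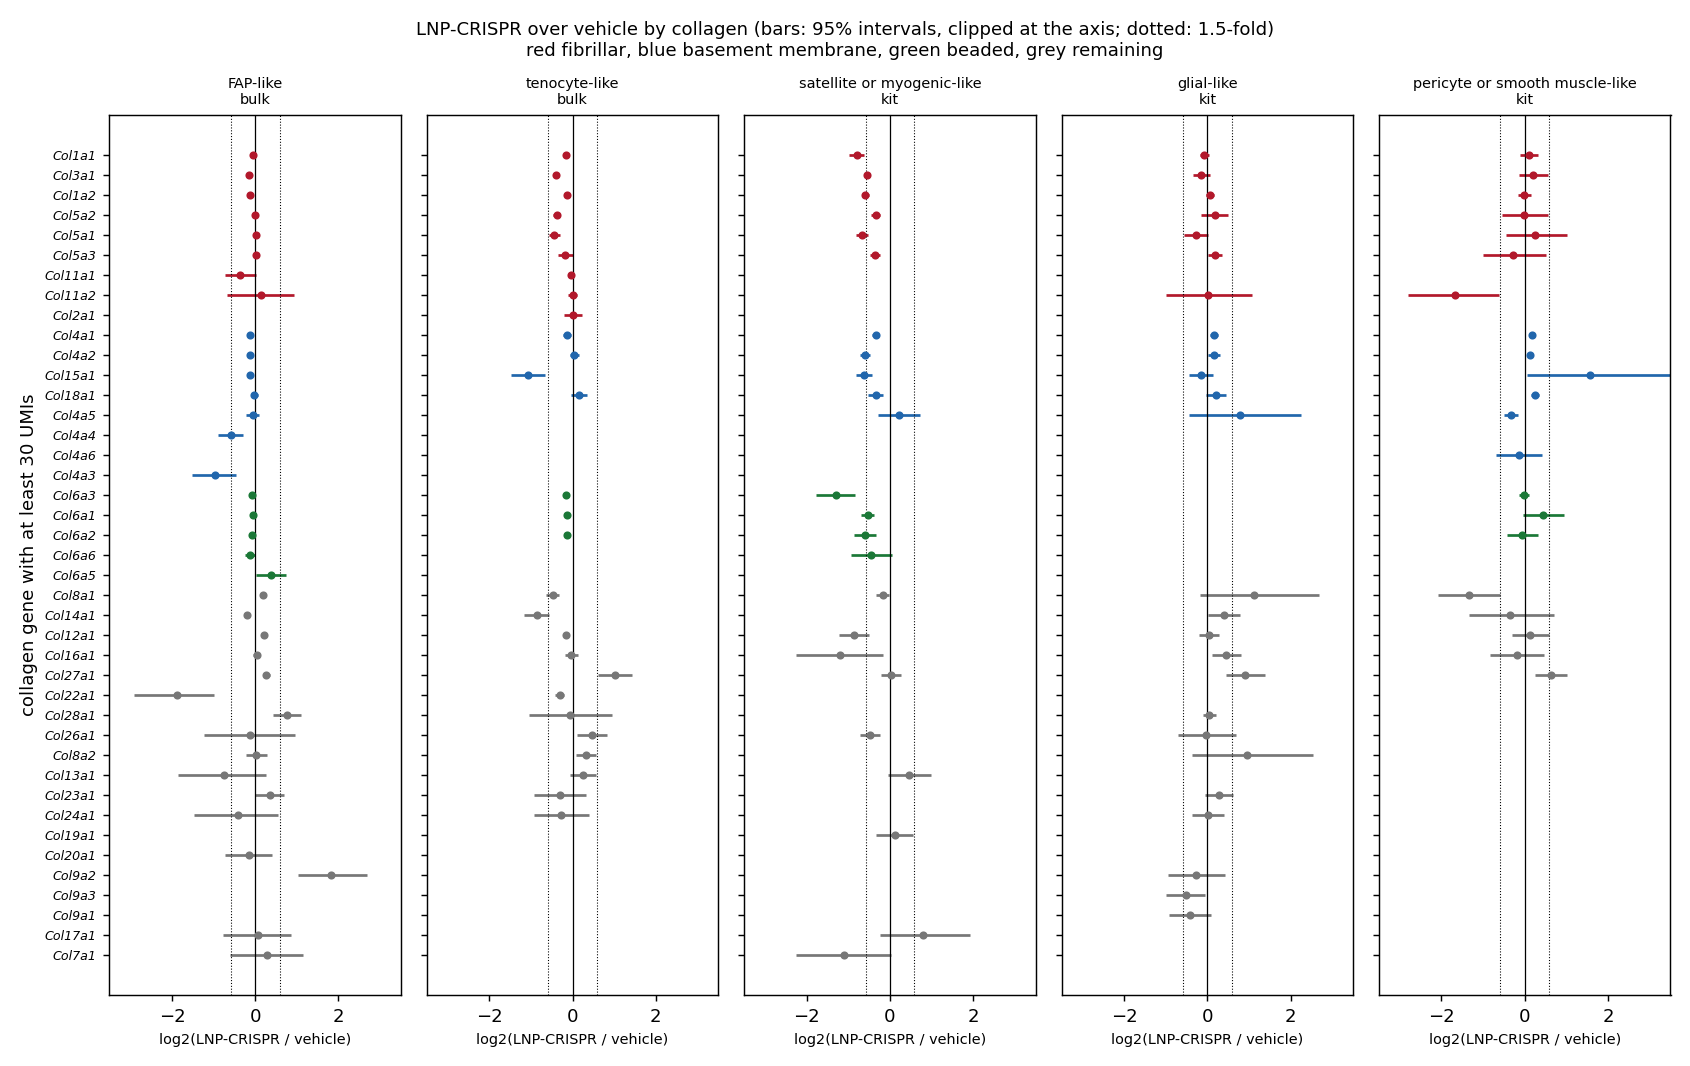
Log2 ratio of LNP-CRISPR to vehicle CPM for members with at least 30 UMIs in FAP-like, tenocyte-like, satellite or myogenic-like, glial-like and pericyte or smooth muscle-like cells, with 95% intervals and dotted lines at 1.5-fold. Most FAP-like members lie between the lines, and Col27a1 lies above the upper line in tenocyte-like cells (ratio 2.02). In satellite or myogenic-like cells 10 of 24 members lie below the lower line, against 7.85% of all genes with at least 30 UMIs. The cluster makeup of that class differed between the libraries.

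In the satellite or myogenic-like class 24 members had enough UMIs, of which 1 was higher and 10 lower (45.8%), against 4.15% higher and 7.85% lower (12% together) of all genes. The median log2 ratio was -0.51 against -0.02 for all genes. The group ratios were 0.694 (0.675 to 0.713), 0.747 (0.718 to 0.777) and 0.663 (0.609 to 0.721). The 5 lowest members were Col6a3 (13.7 to 5.59 CPM), Col16a1 (2.91 to 1.27), Col7a1 (2.35 to 1.1), Col12a1 (20.5 to 11.3) and Col1a1 (76 to 43.6). Without the highest cell of each library the class ratio of Col6a3 was 0.553 and not 0.408. Col17a1 was the higher one, on 11 and 31 UMIs. The count of lower members depended on how cells were chosen and weighted: it was 0 after clustering at a finer resolution (325 vehicle and 364 LNP-CRISPR cells), 1 when each cell was named by its own markers, 3 with stricter cell filters and 4 with equal weight per cell. The share over all genes was not computed under those settings. At the finer resolution (26 vehicle and 50 LNP-CRISPR kit cells) and with stricter filters (12 and 24), the cluster led by Myh3 was named muscle fibre-like and left the class. The fibrillar ratio under the 4 settings lay between 0.772 and 0.853. The class had a different makeup in the 2 libraries: cluster 2 gave 232 of 337 vehicle cells and 220 of 385 LNP-CRISPR cells, cluster 14 gave 44 and 83, and cluster 23 gave 24 and 48. Within cluster 2, 0 of the 20 members with enough UMIs passed 1.5-fold, against 6.34% higher and 6.47% lower (12.8% together) of all genes, and the group ratios were 0.923 (0.894 to 0.953), 1.06 (1.01 to 1.1) and 0.937 (0.848 to 1.04). Within cluster 14, 7 of 18 members were lower and 0 higher, against 6.61% lower and 7.78% higher (14.4% together) of all genes. It had a fibrillar ratio of 0.636 (0.599 to 0.675), Col1a2 at 419 and 234 CPM, and Col6a3 at 38.6 and 8.45. The FAP marker list summed to 299 CPM in vehicle and 173 in LNP-CRISPR cells of the class, and Pi16, Dpp4 and Smoc2 of its 12 markers were at 0 in the vehicle cells. Its part in the result was not tested.

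Cluster 12 of the kit libraries had 21 members with enough UMIs, of which 7 were higher and 2 lower (42.9%), against 4.59% higher and 4.23% lower (8.81% together) of all genes. Its basement membrane sum went from 94.8 to 194 CPM, a ratio of 2.05 (1.85 to 2.28), with Col4a1 at 23.4 and 93.8 CPM, Col4a2 at 13.7 and 44 and Col15a1 at 4.78 and 17.6. The fibrillar ratio was 1.11 (1.05 to 1.17), with Col1a1 at 12.2 and 22.8 CPM and Col5a1 at 16.5 and 31.6. Col26a1 (4.28 and 12.5 CPM) was also higher, and Col13a1 (11.5 and 5.79) and Col14a1 (5.44 and 1.74) were lower. Summed satellite or myogenic markers were 1792 and 1658 CPM in the same cells, of which Myog, a gene of differentiating muscle cells, had 231 and 127 and Chodl had 9.89 and 42.6. Pericyte or smooth muscle markers summed to 242 and 263 CPM. Over all collagens, the median share of a cluster 12 cell's UMIs was not higher in LNP-CRISPR, at 0.0507% in vehicle and 0.0474% in LNP-CRISPR. The upper quartile was 0.096% and 0.138%. Cluster 9 had 21 members with enough UMIs, of which 3 were higher and 3 lower (28.6%), against 3.48% higher and 4.56% lower (8.04% together) of all genes. Col4a2 went from 21.9 to 36.9 CPM, whereas Col6a1 went from 35.7 to 22.5, Col6a2 from 17.2 to 10.4 and Col12a1 from 10.7 to 6.96. With the highest cells left out 1 member was lower. With equal weight per cell 8 were higher and 1 lower, and the fibrillar ratio was 1.2 and not 0.891. No share over all genes was computed for either setting.

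Macrophage or monocyte-like, dendritic-like and muscle fibre-like cells had 14, 9 and 4 members with enough UMIs. In macrophage or monocyte-like cells 6 were higher and 1 lower, against 4.64% higher and 6.37% lower (11% together) of all genes. In dendritic-like cells 0 were higher and 6 lower, against 8.67% higher and 10.3% lower (19% together). In muscle fibre-like cells 2 were higher and 0 lower, against 23.4% higher and 3.81% lower (27.2% together). In vehicle dendritic-like cells 64.6% of the collagen UMIs came from 1 cell, without which and without its LNP-CRISPR counterpart the fibrillar ratio was 1.37 and not 0.479. The fibrillar ratio of macrophage or monocyte-like cells was 1.64, and 0.475 with called doublets kept. In these cells the tenocyte marker list summed to 29.2 CPM in vehicle and 88.3 in LNP-CRISPR. Its part in the ratio was not tested.

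Genes whose products modify, fold, cut, crosslink or bind collagen were followed through 7 lists of 73 genes. Serpinh1, the collagen chaperone of the endoplasmic reticulum, had 1483 and 1444 CPM in FAP-like cells of vehicle and LNP-CRISPR bulk, 1533 and 1346 in tenocyte-like cells and 452 and 412 in satellite or myogenic-like cells of the kit libraries. Sparc, a collagen-binding secreted protein, had 24976 and 21106 CPM in tenocyte-like, 8899 and 7952 in FAP-like and 6170.03 and 5964 in glial-like cells. Lox, which crosslinks fibrils, had 1993 and 2039 CPM in tenocyte-like and 679 and 729 in FAP-like cells, and its relative Loxl1 had 288 and 262 and 557 and 556. Dcn, a small proteoglycan on fibrils, had 9025 and 6728 CPM in tenocyte-like and 6766 and 6082 in FAP-like cells but at most 5.12 in satellite or myogenic-like cells. Bgn had 2709 and 2605 CPM in tenocyte-like and 2909 and 2777 in FAP-like cells. Pcolce and Bmp1, which act in propeptide removal, had 1025 and 929 and 289 and 288 CPM in FAP-like cells. P4hb and Plod2, of proline and lysine hydroxylation, had 619 and 617 and 292 and 349. Nid1, a linker of basement membranes, had 1059 and 1086 CPM in FAP-like and 278 and 360.07 in glial-like cells, while Lamc1, a laminin chain, had 594 and 615 and 189 and 234. Of the receptors, Itgb1 was highest in pericyte or smooth muscle-like cells, with 1804 and 1993 CPM, and Ddr2 in FAP-like cells, with 252 and 234.

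In FAP-like cells 1 of the 64 list genes with enough UMIs passed 1.5-fold, against 8% of all genes. It was the crosslinking transglutaminase Tgm2, at 47.5 and 72.5 CPM (1.53, 1.4 to 1.66). Tgm2 was also higher in tenocyte-like cells, at 46.3 and 82.3 CPM, and in glial-like cells, at 2.07 and 9.98, where the vehicle value rests on 3 UMIs. In tenocyte-like cells 2 of 59 list genes were higher and 3 lower, against 6.26% and 8% of all genes. The proteoglycan Aspn (851 and 564 CPM), the collagen receptor Itga2 (65.2 and 37.7) and P4ha2 (17.9 and 11.9) were lower and the proteoglycan Podn (12.7 and 19.2) was higher beside Tgm2. In satellite or myogenic-like cells 11 of 53 list genes were lower and 0 higher, against 7.85% and 4.15% of all genes. The cluster makeup of that class differed between the libraries, as given above. They included 4 of 5 fibril-binding proteoglycans, with Ogn at 89.7 and 45.2 CPM and Prelp at 54.1 and 27.1, and 1 gene each of crosslinking (Loxl1, 88.3 and 56.9), propeptide cleavage (Bmp1, 43.7 and 28), basement membrane partners (Lama2, 116 and 76.7), folding (Fkbp14) and receptors (Mrc2), with Plod2 and P3h3 of the hydroxylases. In cluster 12, 6 of 45 list genes were higher and 1 lower, against 4.59% and 4.23% of all genes. The higher ones included Sparc (225 and 377 CPM), P4ha1 (31.5 and 47.5), Lama2 (23.4 and 43.6), Lamb2 (6.43 and 12.9) and Prelp (3.13 and 11.2).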

How the data were processed

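The deposited files hold raw UMI counts per gene and cell barcode from 10x Chromium 3' libraries, which the authors made with Cell Ranger 7.0.1 on the mm10 mouse genome, per the submitters' processing notes; the matrix headers name version 5.0.1. The 4 libraries (1 per group, grouped by their labels) held 1305, 1317, 1683 and 2207 barcodes, the 2 bulk libraries first and vehicle before LNP-CRISPR in each pair, with 33801488, 25921795, 28597422 and 40666916 UMIs. The number of animals behind a library was not given in the sources used here.

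Barcodes with fewer than 200 genes or over 20% mitochondrial UMIs were removed (101, 165, 272 and 300), then Scrublet calls as implemented in scanpy 1.11.5 (5, 3, 7 and 8 doublets, 0.26% to 0.496%). So low a call rate may leave doublets in place. Cells were scaled to 10000 UMIs, log-transformed and clustered on 2000 variable genes, 30 components and 15 neighbours at Leiden resolution 1.0 (leidenalg 0.10.2, Python 3.11.15, numpy 2.4.6, scipy 1.17.1). Collagens were left out of the variable genes and of all 16 marker lists. To take a class name, a cluster needed 3 or more of its markers in 10% or more of cells with a log2 fold over the other cells of 1 or higher.

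Raw UMIs were summed per class and library. Levels are shown for classes of at least 20 cells and compared for at least 50 in both libraries. Single clusters within a class, and classes under the alternative settings, were compared for at least 20 cells in both libraries. Intervals are exact Poisson for sums and conditional binomial for ratios, at 95%. The ratio step was checked on simulated counts. The collagen members, the marker lists and the 7 lists of collagen-related genes were chosen with earlier results of these data known. Named members were the 5 with most UMIs in each group, the 3 highest of a class, up to 5 highest and 5 lowest ratios past 1.5-fold per class, every neighbouring pair, and of each gene list the 2 most abundant and up to 2 past 1.5-fold per class; others were named after their values were seen. The alternatives were another Leiden resolution, stricter cell filters, doublets kept, collagens among the variable genes, naming by marker score, equal weight per cell, the highest cell left out, other count minimums, another scaling and thinning to 1000 UMIs. Upstream sequences came from RefSeq tables on GRCm38.p6.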

Additional observations from a re-analysis of the deposited data

Results flagged for a closer look

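Several members stood on opposite sides of 1 in LNP-CRISPR over vehicle in 2 classes, with both 95% counting intervals leaving out 1. None of these differences between classes was tested, since each class had 1 library per group. Col13a1 had a ratio of 0.502 in cluster 12 and 1.77 in cluster 9, both of the kit libraries. Col15a1 had 0.477 in tenocyte-like cells of bulk and 3.67 in cluster 12. Col4a2 had 0.661 in satellite or myogenic-like cells of the kit libraries against 3.22 in cluster 12, and Col5a1 had 0.629 against 1.92. Cluster 12 thus carried the higher value for 3 of these 4 members. The cluster makeup of the satellite or myogenic-like class differed between the libraries, as given above.

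The other pairs each include dendritic-like or macrophage or monocyte-like cells, which held 5.87 to 15.9 collagen UMIs per cell. Col1a1 had 0.553 in dendritic-like and 2.01 in macrophage or monocyte-like cells, which became 1.37 and 1.66 without the highest cell of each library. Col1a2 had 0.53 and 1.71 in the same classes, and 1.25 and 1.29 without those cells. Col6a3 had 0.408 in satellite or myogenic-like cells (0.553 without the highest cells) and 1.89 in macrophage or monocyte-like cells. Col22a1 had 0.271 in FAP-like cells (0.532 without the highest cells) and 40.8 in macrophage or monocyte-like cells, where 1 UMI stood against 40 and 19 of the 40 lay in 1 cell.

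Cluster 5, a group of low-depth barcodes that no comparison used, had 24242.5 CPM of fibrillar collagens in the 20 cells of LNP-CRISPR bulk and 5662 in vehicle bulk. Without the highest cell of each library the values were 13729 and 6278.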

How the results depend on the processing

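No paired analysis was possible because each group held 1 library. With no replicate, depth limits only the counting intervals, and the differences between libraries have no measured error. A value is listed below where it left its 95% counting interval, or where a count moved by more than 1.5 times. Shares over all genes were not computed under these settings, so the counts of members below have no background beside them. With a minimum of 1 UMI in each library a ratio can pass 1.5-fold on a few UMIs. Class names are shortened here, so that FAP stands for FAP-like cells and so on. The settings differed in how often they moved values: allowing collagens among the variable genes moved values only in the dendritic and macrophage or monocyte classes, and the other scaling moved 2 group ratios. Clusters 9 and 12 were not followed under settings that rebuilt or renamed the clusters, since their numbers have no counterpart there. The direction of the fibrillar, basement membrane and beaded ratios of FAP-like, tenocyte-like and satellite or myogenic-like cells was the same under every setting run. Directions turned for the fibrillar ratio of dendritic cells (0.479 to 1.23, 1.63 and 1.37), that of macrophage or monocyte cells (1.64 to 0.475), the beaded ratio of glial cells (1.81 to 0.851) and the order of glial over satellite or myogenic cells in vehicle kit. Other ratios also crossed 1 under some settings, in the dendritic, macrophage or monocyte, muscle fibre, glial and pericyte or smooth muscle classes and in cluster 9. The cause was not tested.

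When every member was counted with at least 1 UMI in each library, the count of higher members became 3 in dendritic, 13 in macrophage or monocyte, 5 in tenocyte, 12 in cluster 12, 7 in cluster 9, 7 in glial, 12 in muscle fibre and 4 in satellite or myogenic. Counts of lower members became 5 in FAP, 3 in macrophage or monocyte, 5 in cluster 9, 4 in glial, 1 in muscle fibre, 5 in pericyte or smooth muscle and 16 in satellite or myogenic. When members were counted only with at least 100 UMIs, the count of higher members became 1 in FAP, 2 in macrophage or monocyte, 1 in cluster 9, 1 in glial, 0 in muscle fibre, 1 in pericyte or smooth muscle and 0 in satellite or myogenic. Lower members numbered 1 in FAP, 3 in dendritic, 0 in macrophage or monocyte, 1 in cluster 12 and 0 in pericyte or smooth muscle. With Leiden resolution 2.0, the fibrillar ratio became 0.942 in FAP, 0.918 in tenocyte and 0.78 in satellite or myogenic. The basement membrane ratio became 1.12 in muscle fibre and 0.928 in satellite or myogenic. The muscle fibre class took in the cluster led by Myh3 at this resolution, and also with the stricter cell filters. The beaded ratio became 0.784 in satellite or myogenic. Counts of higher members became 4 in muscle fibre. Lower members then numbered 1 in muscle fibre and 0 in satellite or myogenic. Ratios of the highest to the next class became 2.27 for fibrillar genes in vehicle bulk, 2.05 for basement membrane genes in vehicle bulk, 1.31 for fibrillar genes in vehicle kit and 1.83 for beaded genes in vehicle kit. With at least 500 genes and at most 10% mitochondrial UMIs per cell, the fibrillar ratio became 1.23 in dendritic, 1.1 in macrophage or monocyte, 0.888 in tenocyte, 0.94 in pericyte or smooth muscle and 0.772 in satellite or myogenic. Basement membrane ratios became 1.76 in dendritic, 1.24 in pericyte or smooth muscle and 0.854 in satellite or myogenic. Beaded ratios became 1.6 in dendritic, 1.14 in pericyte or smooth muscle and 0.731 in satellite or myogenic. Higher members numbered 7 in dendritic, 1 in macrophage or monocyte, 2 in tenocyte, 4 in muscle fibre and 2 in satellite or myogenic. Counts of lower members became 2 in dendritic, 0 in macrophage or monocyte, 5 in pericyte or smooth muscle and 3 in satellite or myogenic. The highest class exceeded the next by 2.38 for fibrillar genes in vehicle bulk, 2.07 for basement membrane genes in vehicle bulk, 1.52 for fibrillar genes in vehicle kit, 2 for basement membrane genes in vehicle kit and 1.9 for beaded genes in vehicle kit. With called doublets kept, the fibrillar ratio became 0.556 in dendritic and 0.475 in macrophage or monocyte. Those of basement membrane genes became 0.4995 in dendritic, 0.292 in macrophage or monocyte and 1.16 in pericyte or smooth muscle. Those of beaded genes became 0.302 in macrophage or monocyte. Higher members then numbered 1 in dendritic, 1 in macrophage or monocyte and 1 in pericyte or smooth muscle. Lower members numbered 12 in macrophage or monocyte. Between the highest and the next class it became 2.18 for basement membrane genes in vehicle kit. With collagens allowed among the variable genes, the fibrillar ratio became 0.881 in dendritic and 1.36 in macrophage or monocyte. The beaded ratio became 1.28 in dendritic. Counts of higher members became 3 in macrophage or monocyte. Lower members then numbered 3 in dendritic. With each cell named by its own marker score, the fibrillar ratio became 0.941 in FAP, 0.945 in dendritic, 0.98 in tenocyte, 1.07 in glial, 1.02 in muscle fibre and 0.853 in satellite or myogenic. The basement membrane ratio became 0.907 in FAP, 2.14 in dendritic, 1.21 in glial, 1.16 in pericyte or smooth muscle and 0.993 in satellite or myogenic. Beaded ratios became 1.43 in dendritic, 0.934 in tenocyte, 0.851 in glial and 0.731 in satellite or myogenic. Higher members numbered 3 in dendritic, 10 in macrophage or monocyte, 0 in tenocyte and 0 in satellite or myogenic. Counts of lower members became 3 in dendritic, 0 in macrophage or monocyte, 4 in tenocyte and 1 in satellite or myogenic. Ratios of the highest to the next class became 2.14 for fibrillar genes in vehicle bulk, 2.1 for basement membrane genes in vehicle bulk, 1.17 for beaded genes in vehicle bulk, 1.95 for fibrillar genes in vehicle kit, 3.18 for basement membrane genes in vehicle kit and 3.72 for beaded genes in vehicle kit. With equal weight per cell, the fibrillar ratio became 0.955 in FAP, 1.63 in dendritic, 1.81 in macrophage or monocyte, 0.921 in tenocyte, 1.22 in cluster 12, 1.2 in cluster 9, 0.973 in muscle fibre and 0.832 in satellite or myogenic. Basement membrane ratios became 0.933 in FAP, 3.57 in dendritic, 1.85 in cluster 12, 1.92 in cluster 9, 1.21 in muscle fibre and 0.906 in satellite or myogenic. Those of beaded genes became 0.993 in FAP, 2.76 in dendritic, 0.869 in tenocyte, 0.879 in cluster 9 and 0.826 in satellite or myogenic. Higher members then numbered 6 in dendritic, 8 in cluster 9 and 0 in satellite or myogenic. Lower members numbered 0 in dendritic, 0 in macrophage or monocyte, 4 in tenocyte, 1 in cluster 9, 1 in muscle fibre and 4 in satellite or myogenic. The highest class exceeded the next by 1.93 for fibrillar genes in vehicle bulk, 2.19 for basement membrane genes in vehicle bulk, 1.19 for beaded genes in vehicle bulk, 0.979 for fibrillar genes in vehicle kit, 2.61 for basement membrane genes in vehicle kit and 1.71 for beaded genes in vehicle kit. With the highest cell of each library left out, the fibrillar ratio became 1.37 in dendritic, 1.37 in macrophage or monocyte and 0.889 in tenocyte. Those of basement membrane genes became 3.45 in dendritic. The beaded ratio became 1.33 in dendritic. Lower members then numbered 0 in dendritic, 0 in macrophage or monocyte, 1 in cluster 9 and 1 in pericyte or smooth muscle. Between the highest and the next class it became 2.25 for fibrillar genes in vehicle bulk, 2.06 for basement membrane genes in vehicle bulk and 1.17 for beaded genes in vehicle bulk. With scaling to UMIs outside the collagens, the fibrillar ratio became 0.932 in FAP and 0.891 in tenocyte.

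The shares of cells with a Col1a1 UMI in LNP-CRISPR bulk went from 100% to 97.6% in FAP, from 59.4% to 30.6% in neutrophil and from 74% to 8% in T or NK cells after thinning.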
